A study of Mus musculus with 6 samples.

Results

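Microglia are the resident macrophages of the brain. The 33 genes described here are markers and effectors of these cells, chosen by name from the table of all genes: 17 that mark microglia at rest (homeostatic) and 16 that are known to be induced when microglia react to damage, disease or ageing (reactive). All 33 were found among the 34745 genes listed. They were measured by mRNA sequencing of the dorsal striatum in 3 libraries from mice heterozygous for Ash1l (Ash1l het) and 3 from wild type (WT) mice. All were on a C57BL/6 background and 1 year old per the labels, so age is shared by both genotypes. Ash1l encodes a methyltransferase for histone H3 lysine 36. The labels give neither the position of the Ash1l allele nor whether each library came from a separate mouse, so the p-values reflect only how far these libraries spread, which may be technical.

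Homeostatic microglia depend on the receptor CSF1R for survival, sense ATP breakdown products through P2RY12 and neuronal fractalkine through CX3CR1, and keep their identity through the transcription factors PU.1 and SALL1. In damaged, demyelinated or ageing brain a subset lowers P2ry12, Tmem119 and Cx3cr1 and raises a set of lipid-handling, lysosomal and phagocytic genes, a shift whose later stage depends on the lipid receptor TREM2, which signals through the adaptor TYROBP. Several reactive genes are not private to microglia: astrocytes make Apoe, oligodendrocyte lineage cells express Cd9, and cathepsins B and D are found in neurons and glia alike. In bulk tissue, fewer cells of a type and less RNA per cell cannot be told apart.

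The libraries held between 14421259 and 18798694 counts in Ash1l het and between 12080663 and 17381781 in WT. The targeted gene, Ash1l, stood at 281, 198 and 253 counts scaled to library size (CPM) in Ash1l het, against 308, 295 and 293 CPM in WT. Its log2 fold change of Ash1l het over WT was -0.29 ± 0.13, where ± after a log2 fold change is the standard error of the fit; edgeR's quasi-likelihood test gave it an adjusted p of 0.858. The protocol in the labels describes male mice, but Xist, the RNA of the inactive X chromosome, lay at 1964 to 2957 CPM in Ash1l het, against 1956 to 2465 CPM in WT, and 4 Y-linked genes together had at most 1 count in any library. Spiny projection neuron markers, which define striatum, were present throughout, with 8 genes summing to 3993, 4454 and 5347 CPM in Ash1l het, against 4744, 5472 and 5270.3 CPM in WT. By sign 7 of the 8 were lower, where 51.4% of all tested genes were higher. Their median lay -0.20, -0.17 and 0.01 log2 units from the WT mean in Ash1l het replicates 1, 2 and 3. In WT it lay between -0.09 and 0.08. An edgeR quasi-likelihood unadjusted p under 0.05 with a lower level was found for 2, against 2.67% of all tested genes. The part of this difference in the reactive values was not tested. Ash1l het replicates 1 and 2 stood apart from the other libraries in reactive glial genes: 8 reactive astrocyte genes summed to 725, 1236 and 222 CPM in the 3 Ash1l het libraries, against 308, 144 and 177 CPM in WT. Members' fold changes that rest on those libraries are given with and without them.

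The promoters of a few members are shown because regulators of microglia read short DNA words there. Windows from 250 bases before to 50 bases after the annotated start were taken from RefSeq (build GRCm38.p6), and 25 of the 33 members had one. The following words were searched on both strands: GAGGAAG, the core read by PU.1, TGANTCA, read by AP-1, and CACGTGA, an E-box of the kind that lysosomal regulators of the TFEB and MITF family read. Matches are in capitals. Ctss and Laptm5 are the most abundant homeostatic members with a match, and Ctsd and Cd68 the most abundant reactive ones. Spp1 was added after its values were seen, because it had the smallest p of the 33.
Ctss (chr3:95526536-95526835, plus strand): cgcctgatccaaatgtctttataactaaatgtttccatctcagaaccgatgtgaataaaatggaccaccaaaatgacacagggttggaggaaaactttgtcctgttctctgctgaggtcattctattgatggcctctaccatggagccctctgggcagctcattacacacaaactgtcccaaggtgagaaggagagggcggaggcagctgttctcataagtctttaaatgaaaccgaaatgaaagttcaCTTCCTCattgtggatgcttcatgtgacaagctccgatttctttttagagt
Laptm5 (chr4:130913066-130913365, plus strand): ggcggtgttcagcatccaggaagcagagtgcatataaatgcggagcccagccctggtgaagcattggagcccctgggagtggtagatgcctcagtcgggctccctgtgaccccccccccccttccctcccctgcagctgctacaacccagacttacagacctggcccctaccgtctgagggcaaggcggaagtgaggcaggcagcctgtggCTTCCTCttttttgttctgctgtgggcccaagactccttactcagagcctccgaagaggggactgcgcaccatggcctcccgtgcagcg
Spp1 (chr5:104434861-104435160, plus strand): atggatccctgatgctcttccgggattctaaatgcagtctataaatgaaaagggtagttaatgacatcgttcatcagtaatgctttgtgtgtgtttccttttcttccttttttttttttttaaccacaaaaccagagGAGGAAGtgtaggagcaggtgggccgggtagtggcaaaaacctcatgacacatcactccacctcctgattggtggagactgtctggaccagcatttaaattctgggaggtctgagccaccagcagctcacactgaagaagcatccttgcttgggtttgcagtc
Ctsd (chr7:142387778-142388077, minus strand): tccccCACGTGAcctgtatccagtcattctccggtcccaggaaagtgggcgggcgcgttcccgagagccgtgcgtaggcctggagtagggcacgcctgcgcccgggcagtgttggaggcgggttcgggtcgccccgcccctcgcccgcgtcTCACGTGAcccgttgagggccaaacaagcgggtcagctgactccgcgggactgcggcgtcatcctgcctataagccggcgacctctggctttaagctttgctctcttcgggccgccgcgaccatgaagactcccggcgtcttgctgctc
Cd68 (chr11:69666121-69666420, minus strand): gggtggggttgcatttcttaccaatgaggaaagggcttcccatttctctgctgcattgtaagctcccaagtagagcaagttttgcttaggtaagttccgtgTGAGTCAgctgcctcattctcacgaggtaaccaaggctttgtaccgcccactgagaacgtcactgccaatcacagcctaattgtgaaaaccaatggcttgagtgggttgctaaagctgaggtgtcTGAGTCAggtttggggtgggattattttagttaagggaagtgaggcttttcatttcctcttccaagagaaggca

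The PU.1 word lay at -1 to 6 in Ctss and at -39 to -33 in Laptm5, both on the opposite strand, and at -113 to -107 in Spp1, counted from the start site. It was found in 7 of 12 homeostatic members with a window (58.3%), in 2 of 13 reactive members (15.4%) and in 15.4% of the 27025 genes with a window. Cd68 held the AP-1 word at -149 to -143 and at -24 to -18. That word was found in 1 of 12 homeostatic members (8.33%), 4 of 13 reactive members (30.8%) and 8.97% of all genes. Ctsd held the E-box at -245 to -239, and again where matches on both strands overlap at -99 to -92. The E-box was found in 2 of 12 homeostatic (16.7%) and 1 of 13 reactive members (7.69%), against 4.29% of all genes. These matches describe letters in short windows and do not show binding.

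Levels per transcript length were compared in FPKM, the authors' deposited values. Averaged over the 6 libraries, the lipid carrier gene Apoe (163 FPKM) and the lysosomal proteases Ctsb (114) and Ctsd (85.5) stood highest, followed by the protease Ctss (40.4), the adaptor Tyrobp (20.4) and Csf1r (19.1). This order did not hold in every library. Apoe was below Ctsb in replicate 1 of both genotypes, at 115.6 FPKM against 117 for Ctsb in Ash1l het, and at 105 FPKM against 108 for Ctsb in WT. Ctsd was below Ctsb in 5 libraries, but Ctsd reached 156 FPKM in Ash1l het replicate 2 where Ctsb was at 126. Tyrobp and Csf1r also overlapped, at 12.04 to 50.7 FPKM for Tyrobp and 17.5 to 20.1 FPKM for Csf1r. Among the classical homeostatic markers, Cx3cr1 averaged 9.94 FPKM, Sall1 8.71, Tmem119 7.44 and P2ry12 4.40. The chemokine gene Ccl4 was the least abundant member, at 0.349 FPKM on average in Ash1l het, against 0.0582 FPKM in WT. Gpnmb, Itgax, Lgals3 and Ccl3 were also scarce, at 0.712 to 1.81 FPKM in Ash1l het, against 0.182 to 0.277 FPKM in WT.

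By the median gene of each list, the homeostatic genes centred on the WT level and the reactive genes were higher in 2 of the 3 Ash1l het libraries. Sums of FPKM, where the most abundant genes weigh most, gave another picture. The reactive sums were 391, 679 and 391 FPKM in Ash1l het, against 332, 331 and 418 FPKM in WT, so only Ash1l het replicate 2 was above all WT libraries. The homeostatic sums were 147, 234 and 128 FPKM in Ash1l het, against 145, 127 and 136 FPKM in WT. None of the 33 passed the quasi-likelihood test of edgeR over all 15267 genes tested, where 2 genes (0.0131%) passed and 0 were lower. By DESeq2 and by edgeR's exact test, 1 member was called, Spp1, beside 35 (0.183%) and 41 (0.269%) calls over all genes. All 17 homeostatic genes and 14 of the 16 reactive genes passed the low-count filter; Ccl3 and Ccl4 did not. Of the homeostatic genes, 9 were higher and 8 lower by sign, with a median log2 fold change of 0.03. Of the 14 tested reactive genes, 13 were higher by sign, with a median of 0.91, and over all tested genes 51.4% were higher by sign, with a median of 0.0063. The reactive genes that passed the filter include some that did so mainly through the high Ash1l het libraries. Unadjusted p-values under 0.05 with a higher level were found for 2 homeostatic and 6 reactive members, against 3.1% of all tested genes. No member had such a p with a lower level, against 2.67%.

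Library by library, the median reactive gene lay 0.61, 1.31 and -0.06 log2 units from the WT mean in Ash1l het replicates 1, 2 and 3, and between -0.11 and 0.06 in the WT libraries, over all 16 genes. The same medians for the 17 homeostatic genes were 0.05, 0.19 and -0.10 in Ash1l het and between -0.04 and 0.08 in WT. Ash1l het replicate 1 exceeded all 3 WT libraries in 13 of 16 reactive genes, replicate 2 in 16 and replicate 3 in 2 (Spp1 and Ctsb). Over all tested genes the shares were 32.9%, 33.2% and 25.5% for the same libraries. Of the homeostatic genes, 6, 10 and 1 of 17 exceeded all WT libraries in Ash1l het replicates 1, 2 and 3. Both replicates 1 and 2 lay above the other 4 libraries in 12 of 16 reactive and 4 of 17 homeostatic genes, against 10.6% of all tested genes. Replicate 2 was the highest of the 6 libraries in 15 of 16 reactive and 10 of 17 homeostatic genes, against 24.1% of all tested genes. With both left out, chosen after the data were seen, 7 of 14 tested reactive genes were higher by sign and their median was 0.02. Of single libraries, leaving out Ash1l het replicate 2 gave a reactive median log2 fold change of 0.45, and leaving out replicate 3 gave 1.61.

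**Figure D1:**
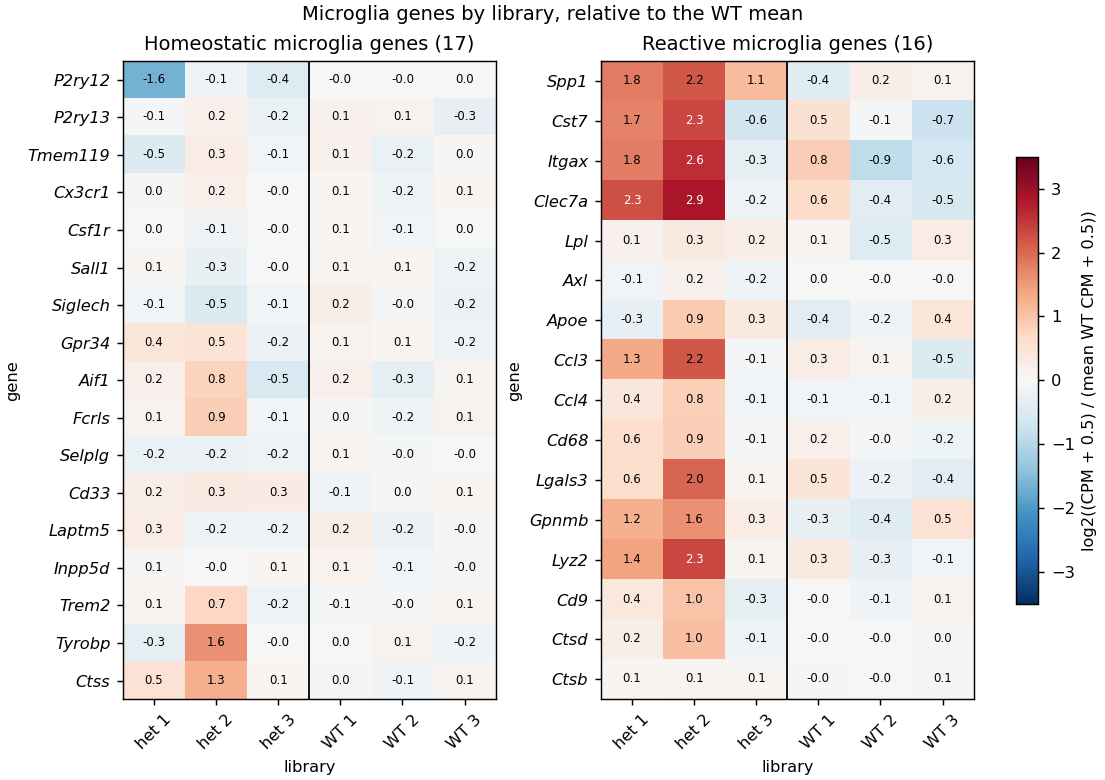
Each cell gives log2 of a library's level over the WT mean (CPM plus 0.5) for 17 homeostatic genes (left) and 16 reactive genes (right); columns are the 3 Ash1l het (het) and 3 WT libraries. In the reactive panel Ash1l het replicates 1 and 2 are mostly red, with medians of 0.61 and 1.31, while replicate 3 has a median of -0.06.

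Among the homeostatic receptors, the growth factor receptor Csf1r stood at 115, 104 and 112 CPM in Ash1l het, against 118, 106 and 116 CPM in WT (fitted log2 fold change -0.04 ± 0.10). Cx3cr1, the fractalkine receptor, stood at 68.7, 75.9 and 65.8 CPM in Ash1l het, against 70.4, 59.8 and 69.5 CPM in WT (fitted log2 fold change 0.08 ± 0.11). The groups overlapped in part for both receptors: Ash1l het replicate 2 was below the WT range for Csf1r and above it for Cx3cr1, while replicates 1 and 3 were among the WT values. The purinergic receptor P2ry12 (GRCm38 chr3:59216272-59262871, minus strand) was at 14.8, 43.1 and 34.5 CPM in Ash1l het, against 47.2, 46.6 and 47.8 CPM in WT. Every Ash1l het library was below every WT library, with replicate 1 far below the rest. Its log2 fold change was -0.61 ± 0.36 (edgeR adjusted p = 0.889), and without Ash1l het replicate 1 it was -0.28. The permutation p was 0.1, the smallest that 3 against 3 allows in this exact two-sided test.

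Other genes were also low in that library. Ash1l het replicate 1 lay more than 2-fold under the lowest of the other 5 libraries in 105 of 14398 genes with a mean of at least 1 CPM (0.729%), more than the 0.257% to 0.292% in each of the other libraries. Olfml3, another gene used to mark microglia, was also lowest in that library, at 8.97, 30.3 and 23.5 CPM in Ash1l het, against 22.4, 24.9 and 23.5 CPM in WT. P2ry13, a purinergic receptor gene beside P2ry12, was not, at 15.6, 18.3 and 13.7 CPM in Ash1l het, against 17.8, 17.5 and 13.1 CPM in WT. P2ry12 and P2ry13 both lie within Med12l on the opposite strand, which stood at 66.2, 47.6 and 54.0 CPM in Ash1l het, against 56.7, 50.7 and 52.9 CPM in WT. The use of strand in the authors' counts is not stated in what was used here, so reads of overlapping genes may have been split, and their part in the P2ry12 value was not tested.

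The adhesion ligand gene Selplg was at 43.0, 43.3 and 44.0 CPM in Ash1l het, against 52.2, 48.8 and 49.5 CPM in WT (fitted log2 fold change -0.21 ± 0.10, edgeR adjusted p = 0.858). Cd33, an inhibitory sialic acid receptor, was at 15.6, 16.8 and 16.4 CPM in Ash1l het, against 12.3, 13.7 and 13.95 CPM in WT (fitted log2 fold change 0.29 ± 0.13, edgeR adjusted p = 0.858). Neither gene's groups overlapped, and neither passed. Of the 33 members, the groups did not overlap for 5: Cd33, Spp1 and Ctsb, with Ash1l het above WT, and P2ry12 and Selplg, with Ash1l het below WT. Over all tested genes 6.18% were higher and 5.53% lower in this way, or 11.7% in all. The remaining surface genes Gpr34, Fcrls, Siglech and Tmem119, a lysophospholipid receptor, an Fc receptor-like protein, a sialic acid lectin and a membrane protein, had log2 fold changes between -0.23 and 0.36, all with overlapping groups.

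Inside the cell, Sall1, the transcription factor that holds microglial identity, stood at 49.5, 39.1 and 46.0 CPM in Ash1l het, against 50.5, 48.8 and 41.2 CPM in WT (fitted log2 fold change -0.06 ± 0.13). Laptm5, a lysosomal membrane protein of blood-derived and microglial cells, was at 64.5, 48.1 and 48.0 CPM in Ash1l het, against 62.7, 46.2 and 51.9 CPM in WT. Replicate 1 of each genotype was the highest for Laptm5, and the groups overlapped. The inositol phosphatase gene Inpp5d had a log2 fold change of 0.03 ± 0.12. Aif1, which encodes the cytoskeletal marker IBA1, had a log2 fold change of 0.27 ± 0.37 and was scarce, at 1.81 to 5.21 CPM in Ash1l het, against 2.21 to 3.31 CPM in WT.

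The TREM2 receptor and its adaptor were high in a single library, Ash1l het replicate 2. Trem2 was at 14.1, 22.2 and 11.5 CPM in Ash1l het, against 12.6, 12.9 and 14.1 CPM in WT. Tyrobp was at 6.73, 26.8 and 8.58 CPM in Ash1l het, against 8.69, 9.45 and 7.64 CPM in WT. For Trem2, Ash1l het replicate 1 was level with the highest WT library and replicate 3 was below the lowest; for Tyrobp, replicate 1 was below all WT libraries and replicate 3 among them. The log2 fold changes were 0.27 ± 0.23 for Trem2 and 0.71 ± 0.54 for Tyrobp, and without Ash1l het replicate 2 they were -0.05 and -0.16. Ctss, a lysosomal cysteine protease of microglia, was at 78.1, 132 and 56.6 CPM in Ash1l het, against 55.6, 49.7 and 57.7 CPM in WT (fitted log2 fold change 0.71 ± 0.30, edgeR adjusted p = 0.858). Replicates 1 and 2 were above WT for Ctss and replicate 3 within it; the log2 fold change was 0.31 without replicate 2 and 0.06 without replicates 1 and 2.

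Tyrobp is a short transcript, with 564 bases in the authors' FPKM, and short transcripts were higher in Ash1l het replicate 2 as a class. Among the shortest of 10 equal classes of tested genes (195 to 1717 bases) the median log2 difference from the WT mean was -0.11, 0.16 and 0.00 in Ash1l het replicates 1, 2 and 3, and between -0.03 and 0.01 in WT. Taken relative to tested genes of like length, a comparison added after the data were seen, the reactive medians were 0.66, 1.31 and -0.06 in Ash1l het and between -0.11 and 0.06 in WT. The homeostatic medians taken in the same way were 0.04, 0.19 and -0.10 in Ash1l het and between -0.04 and 0.08 in WT. The part of transcript length in the Tyrobp value was not tested.

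**Figure D2:**
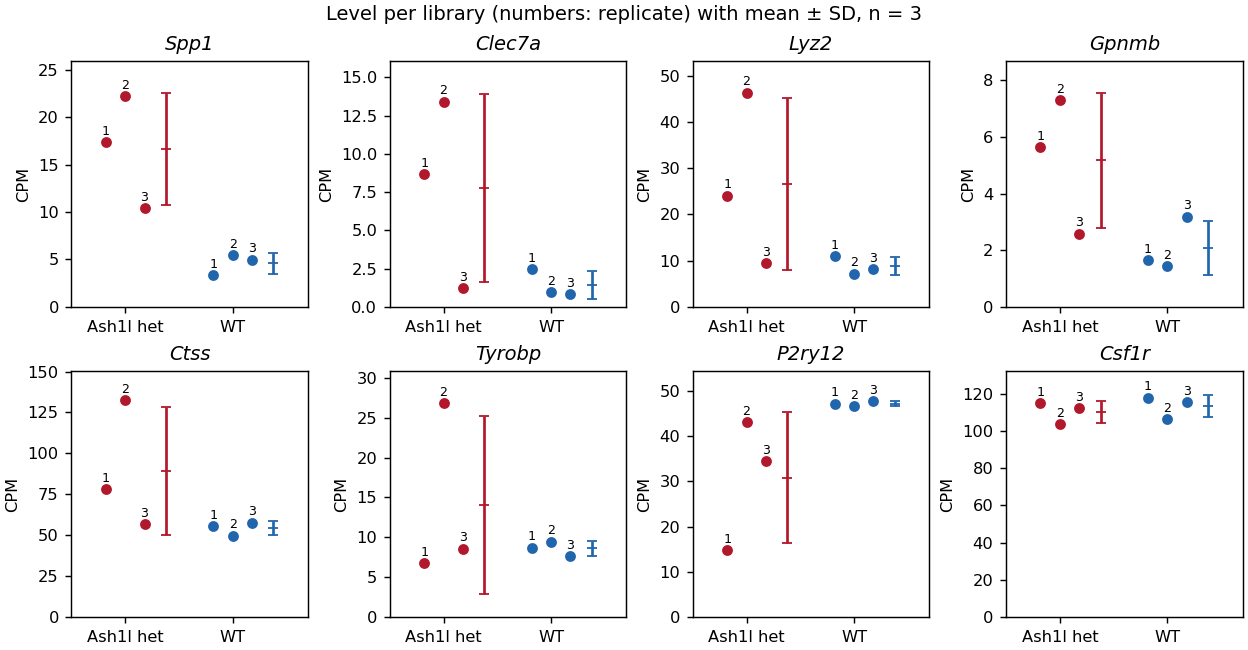
Points are CPM in each library (labelled by replicate number), with the mean and SD of 3 libraries beside them, for 4 reactive (top) and 4 homeostatic members (bottom); each axis starts at 0. Spp1 separates the genotypes, Clec7a and Lyz2 have Ash1l het replicate 3 within the WT range, and for Csf1r the groups overlap, with Ash1l het replicate 2 the lowest of the 6.

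Spp1 (chr5:104435118-104441050, plus strand) encodes osteopontin, a secreted phosphoprotein that binds integrins and CD44. It stood at 17.3, 22.2 and 10.4 CPM in Ash1l het, against 3.31, 5.44 and 4.98 CPM in WT, and was the reactive member with the clearest separation. Every Ash1l het library was above every WT library. The mean was 16.6 ± 5.94 CPM in Ash1l het, against 4.58 ± 1.12 CPM in WT (SD over 3 libraries each), a log2 fold change of 1.85 ± 0.30, or 3.59-fold. By edgeR's quasi-likelihood test p was 0.000218, or 0.299 after adjustment, while the adjusted p was 1.09e-05 by DESeq2, 3.12e-05 by the exact test of edgeR and 0.774 by limma-voom. Over all alternatives run, the adjusted p lay between 1.09e-05 and 0.960. The exact permutation p was 0.1. Without Ash1l het replicate 3 it passed the quasi-likelihood test (log2 fold change 2.10, adjusted p = 0.0407). In replicate 3 by itself, with replicates 1 and 2 left out, the log2 fold change was 1.17 (edgeR adjusted p = 0.245, with that lone library assumed to vary like the WT libraries).

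Other secreted reactive products were highest in Ash1l het replicate 2, then in replicate 1, where the lead over WT was narrow for Lgals3 and Ccl4. Lyz2, which encodes the bactericidal enzyme lysozyme, was at 24.1, 46.3 and 9.40 CPM in Ash1l het, against 11.01, 7.17 and 8.16 CPM in WT (fitted log2 fold change 1.60 ± 0.59, edgeR adjusted p = 0.857). Lgals3, which encodes the sugar-binding galectin-3, was at 1.43, 4.69 and 0.825 CPM in Ash1l het, against 1.24, 0.598 and 0.463 CPM in WT (fitted log2 fold change 1.63 ± 0.70, edgeR adjusted p = 0.858). In both genes the WT range covered Ash1l het replicate 3. Without replicate 2 the log2 fold changes were 0.93 for Lyz2 and 0.58 for Lgals3, and without replicates 1 and 2 they were 0.11 and 0.15. The protease inhibitor gene Cst7, encoding cystatin F, had 43, 72 and 3 counts in Ash1l het, against 12, 8 and 2 counts in WT, and a log2 fold change of 2.35 ± 1.14, which was 1.58 without replicate 2 and -1.55 without replicates 1 and 2. The chemokine gene Ccl3 had 18, 40 and 3 counts in Ash1l het, against 4, 4 and 0 in WT, and its neighbour Ccl4 had 3, 7 and 0 counts in Ash1l het, against 0, 0 and 2 in WT. Both were under the filter of the edgeR fit, and DESeq2 gave them adjusted p-values of 0.685 and 1.0. A count of 0 allows up to 3 counts, which is 0.165 to 0.248 CPM in these libraries.

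Among lipid genes, Apoe was at 640.3, 1458 and 994 CPM in Ash1l het, against 588, 696 and 1055 CPM in WT (fitted log2 fold change 0.40 ± 0.35, or 0.07 without Ash1l het replicate 2). The groups overlapped, and Ash1l het replicate 1, which was high for Spp1 and Clec7a, was the second lowest of the 6 for Apoe. Lpl, which encodes the triglyceride-cleaving lipoprotein lipase, had a log2 fold change of 0.24 ± 0.17, with 72.3 to 82.5 CPM in Ash1l het, against 47.8 to 78.7 CPM in WT.

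At the cell surface, Clec7a (chr6:129461591-129472779, minus strand), which encodes the glucan receptor dectin-1, was at 8.70, 13.4 and 1.21 CPM in Ash1l het, against 2.48, 0.956 and 0.811 CPM in WT. Replicates 1 and 2 were the highest of the 6 and replicate 3 was within the WT range. Its log2 fold change was 2.50 ± 0.93 (edgeR adjusted p = 0.857), and with replicates 1 and 2 left out it was -0.17. Itgax, which encodes the integrin CD11c, was at 4.56, 8.40 and 0.66 CPM in Ash1l het, against 2.15, 0.299 and 0.463 CPM in WT, with a log2 fold change of 2.31 ± 1.08, which was 1.49 without replicate 2 and -0.46 without replicates 1 and 2. Gpnmb, a glycoprotein of phagocytes, was at 5.64, 7.30 and 2.58 CPM in Ash1l het, against 1.66, 1.43 and 3.18 CPM in WT (fitted log2 fold change 1.28 ± 0.44, edgeR adjusted p = 0.857). Here too the WT range covered replicate 3, and the log2 fold change was 0.94 without replicate 2 and 0.29 without replicates 1 and 2. The tetraspanin gene Cd9 had a log2 fold change of 0.44 ± 0.31, or 0.05 without replicate 2 and -0.34 without replicates 1 and 2. Axl, a receptor for the bridging protein GAS6, was the single tested reactive member below 0, at -0.03 ± 0.11.

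Among lysosomal members, Cd68, a glycoprotein of the phagocyte lysosome, was at 27.1, 32.3 and 16.6 CPM in Ash1l het, against 20.0, 17.1 and 15.3 CPM in WT (fitted log2 fold change 0.54 ± 0.23, edgeR adjusted p = 0.858). Ctsd, the aspartic protease, was at 319, 569 and 249 CPM in Ash1l het, against 276, 272 and 282 CPM in WT (fitted log2 fold change 0.46 ± 0.28). In both, replicate 2 was highest and replicate 3 was not above the highest WT library. Without replicate 2 the log2 fold changes were 0.32 for Cd68 and 0.04 for Ctsd, and without replicates 1 and 2 they were -0.07 and -0.15. Ctsb was at 551, 559 and 564 CPM in Ash1l het, against 510.3, 525 and 545 CPM in WT. Its groups did not overlap, but the log2 fold change was only 0.08 ± 0.10.

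**Figure D3:**
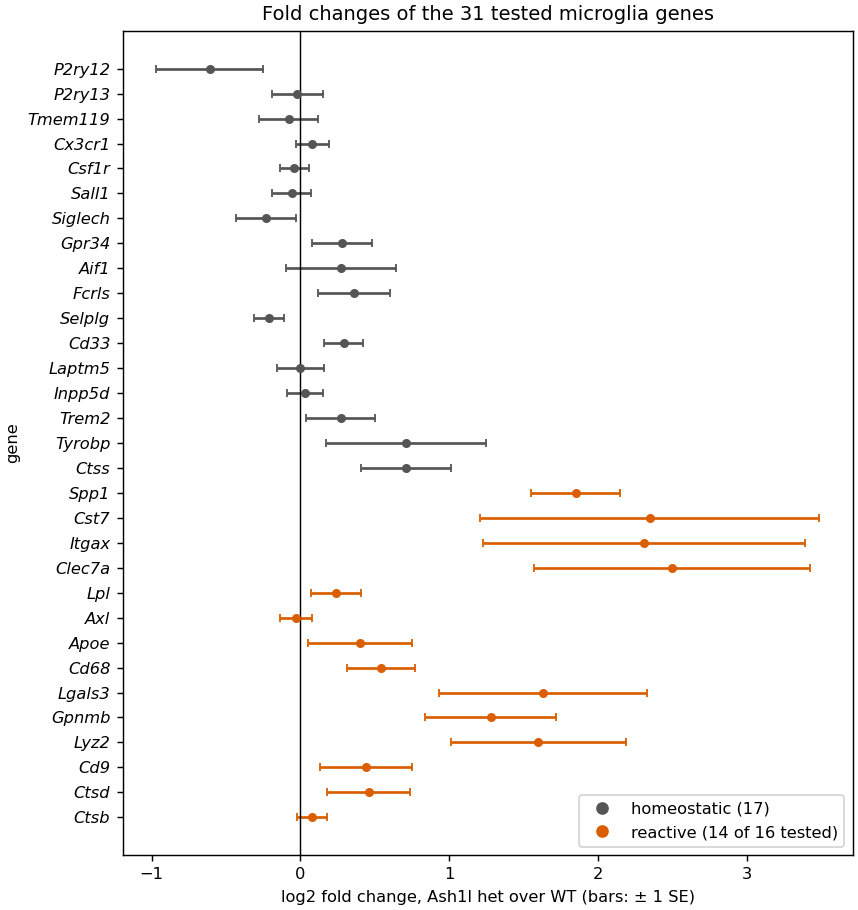
Points are log2 fold changes of Ash1l het over WT with bars of 1 SE, from the edgeR quasi-likelihood fit, for 17 homeostatic members (grey) and the 14 tested reactive members (orange). The homeostatic values lie between -0.61 and 0.71, and 7 reactive values lie above 1, most with wide bars.

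A 2-fold or larger fitted increase was found for 7 of the 14 tested reactive genes and 0 of 17 homeostatic genes, against 0.976% of all tested genes. None of these 7 (Spp1, Cst7, Itgax, Clec7a, Lgals3, Gpnmb and Lyz2) passed the quasi-likelihood test after adjustment over the whole table. Cst7, Itgax and Lgals3 had 118, 208 and 108 counts in all in Ash1l het, against 22, 39 and 33 in WT. Their passing of the low-count filter thus leaned on the high Ash1l het libraries, which limits the comparison with the share over all tested genes. Ash1l het replicate 2 was at least 2-fold above the highest WT library in 10 of 16 reactive genes, replicate 1 in 6 and replicate 3 in 0. The shares over all tested genes were 1.12%, 0.642% and 0.314%.

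The ligands of these receptors and the lineage transcription factors were examined next, as 13 genes that were all tested. By sign 6 were higher and 7 lower, with a median log2 fold change of -0.02, and 0 had an unadjusted p under 0.05. Csf1 and Il34, the CSF1R ligands, had log2 fold changes of 0.42 ± 0.22 and -0.22 ± 0.14. Pros1, a ligand of the receptors TYRO3 and MERTK, had 0.46 ± 0.21, and Mef2c, a transcription factor shared by microglia and neurons, had -0.50 ± 0.23. The fractalkine gene Cx3cl1, named after its values were seen, was at 632, 37.7 and 908 CPM in Ash1l het, against 51.4, 1062 and 955 CPM in WT. It was low in 1 library of each genotype, so its level is not used as a measure of fractalkine.

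Partners of TREM2 and of signalling through TYROBP-like adaptors were represented by 13 genes, of which 10 were tested, 8 higher and 2 lower by sign, with a median of 0.25. The integrin beta chain Itgb2 stood at 11.01, 14.9 and 9.18 CPM in Ash1l het, against 8.20, 7.23 and 7.47 CPM in WT, so the groups did not overlap (fitted log2 fold change 0.62 ± 0.20, edgeR adjusted p = 0.825). Ms4a6d, Lat2 and Btk had log2 fold changes of 0.95 ± 0.41, 0.54 ± 0.29 and -0.52 ± 0.32. Of 16 further microglia genes, all tested, 14 were higher by sign with a median of 0.25. Among them were the leukocyte phosphatase Ptprc, which encodes CD45, at 0.93 ± 0.38, the surface receptor Cd84 at 0.93 ± 0.34, the tetraspanin Cd53 at 0.41 ± 0.17 and Ly86 at 0.48 ± 0.18. Ptprc stood at 10.2, 15.0 and 4.84 CPM in Ash1l het, against 4.30 to 6.21 CPM in WT, and Cd84 at 8.43, 13.3 and 4.84 CPM in Ash1l het, against 4.40 to 5.13 CPM in WT. Both were high in Ash1l het replicates 1 and 2 and within the WT range in replicate 3. None of the members of these lists passed over all genes by edgeR's quasi-likelihood test or by DESeq2.

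Of 20 further reactive genes, 16 were tested, and 15 of these were higher by sign with a median of 0.31. Ch25h, which makes 25-hydroxycholesterol, was at 0.748, 1.82 and 1.65 CPM in Ash1l het, against 0.248, 0.120 and 0.232 CPM in WT (fitted log2 fold change 2.80 ± 0.54). Its groups did not overlap. Its adjusted p was 0.523 by the quasi-likelihood test of edgeR, 0.0981 by DESeq2 and 0.00171 by the exact test of edgeR. The lysosomal protease Ctsz, the oxidase subunit Cybb and the actin-capping Capg had log2 fold changes of 0.47 ± 0.17, 1.84 ± 0.72 and 0.76 ± 0.38. Cybb was at 3.54, 7.56 and 0.935 CPM in Ash1l het, against 0.897 to 1.57 CPM in WT, so its high values were those of replicates 1 and 2. The inhibitory receptor Lilrb4a was under the filter and was the single member of this list called by DESeq2 (adjusted p = 0.0437). The cytokine and chemokine genes Il1b, Tnf and Ccl2 had at most 0.391 CPM in any library, were under the filter of the edgeR fit and had an adjusted p of 1.0 by DESeq2. Of 5 proliferation genes, Mki67 and Top2a were tested, with log2 fold changes of 0.32 ± 0.30 and -0.25 ± 0.24.

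Markers of other cells were summed in the same libraries. The 8 reactive astrocyte genes, whose sums are given above, had 6 of 7 tested members higher by sign, and Gfap stood at 412, 733 and 104 CPM in Ash1l het, against 154, 62.1 and 83.7 CPM in WT. Like the reactive microglia genes, Gfap was highest in Ash1l het replicate 2, then in replicate 1. The median of the 8 genes lay 1.53, 1.58 and 0.58 log2 units from the WT mean in Ash1l het replicates 1, 2 and 3. In WT it lay between -0.32 and 0.27. Replicate 3 was above all WT libraries in 5 of the 8, against 25.5% of all tested genes. DESeq2 called 3 of the 8, against 0.183% of all genes. The 5 red blood cell genes, all tested and all higher by sign, summed to 123, 109.5 and 56.1 CPM in Ash1l het, against 25.1, 35.4 and 23.0 CPM in WT, and DESeq2 called all 5. All 8 endothelial genes were higher by sign, with sums of 284, 255 and 331 CPM in Ash1l het, against 205, 246 and 219 CPM in WT. Their sum was thus highest in Ash1l het replicate 3, and the groups did not overlap for 2 of the 8. The part of these cells in the reactive values was not tested. For red blood cell genes every Ash1l het sum was above every WT sum, so these markers and genotype cannot be told apart. For endothelial genes this separation held for sums of CPM but not of FPKM. In FPKM their sum in Ash1l het replicate 1 (36.88) was below that in WT replicate 2 (38.04).

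Macrophages at the borders of the brain share many genes with microglia. Their 9 markers summed to 26.0, 25.9 and 28.4 CPM in Ash1l het, against 21.7, 21.1 and 22.1 CPM in WT; 4 were tested and all 4 were higher by sign. Every Ash1l het sum was above every WT sum, with the highest in Ash1l het replicate 3, so these markers and genotype cannot be told apart. The part of border macrophages in the reactive values was not tested. Monocyte and neutrophil markers (0 of 9 tested) summed to 2.24 to 3.39 CPM in Ash1l het, against 0.239 to 1.99 CPM in WT. Every Ash1l het sum was above every WT sum, so these markers and genotype cannot be told apart. In each Ash1l het library 6 of the 9 were above all WT libraries, against 25.5% to 33.2% of all tested genes. The groups did not overlap for 3, with Ash1l het higher, against 6.18% of all tested genes. None of the 9 passed the low-count filter, so these shares over tested genes are not a like comparison. At such levels a few counts can set the order of the libraries. All 9 were scarce, and Ccr2 had no count in Ash1l het replicate 3 or WT replicates 2 and 3. The part of these markers in the reactive values was not tested. Among lymphocyte markers, Cd3d had no count in any library, and Cd4 was the single tested gene, at 112 to 125 CPM in Ash1l het, against 126 to 129 CPM in WT. Its groups did not overlap, with Ash1l het lower, against 5.53% of all tested genes. The 7 lymphocyte markers summed to 112 to 125 CPM in Ash1l het, against 127 to 130 CPM in WT. Nearly all of each sum was Cd4, so Cd4 does not stand for the other lymphocyte markers. Sums for 7 general astrocyte markers were 3551 to 4769.9 CPM in Ash1l het, against 3913 to 4748 CPM in WT. The 6 oligodendrocyte markers, all higher by sign, summed to 7001, 7985 and 5458 CPM in Ash1l het, against 6681, 5301 and 5859 CPM in WT. Ash1l het replicate 2 was highest and replicate 1 next. The reactive microglia sum in CPM was also highest in replicate 2 (2923). Its value in replicate 1 (1759) was below Ash1l het replicate 3 (1995) and WT replicate 3 (2076). The part of oligodendrocytes in the reactive values was not tested. Choroid plexus and meningeal markers (8 genes) summed to 27.1 to 29.3 CPM in Ash1l het, against 26.3 to 39.7 CPM in WT.

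**Figure D4:**
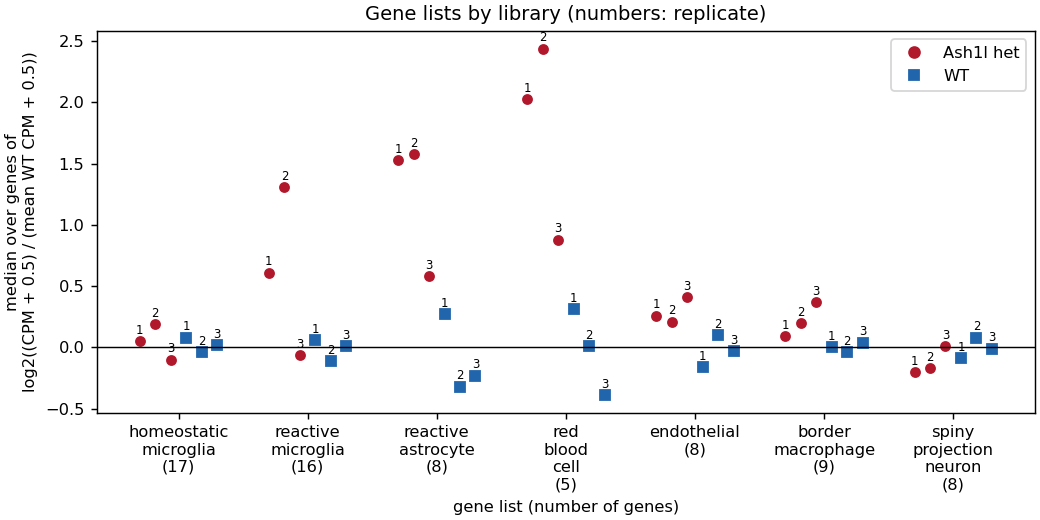
Each point is a library's median, over the genes of a list, of log2 of its level over the WT mean (CPM plus 0.5); circles are Ash1l het, squares WT, and numbers are replicates. Reactive microglia and reactive astrocyte medians are highest in Ash1l het replicates 1 and 2, homeostatic microglia medians stay between -0.10 and 0.19, and border macrophage medians are highest in replicate 3.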

How the data were processed

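RNA of the dorsal striatum was sequenced in 3 Ash1l het and 3 WT libraries; per the labels' protocols the kit keeps strand. HISAT2 and StringTie, with CASAVA, FastQC and edgeR, are listed in the submitters' processing notes, as is build GRCm38, without settings. The authors deposited raw read counts per gene and FPKM for the same genes; counts, library totals and FPKM together gave a whole gene length, to 0.1 base, for 99.1% of genes averaging 10 counts or more. Counts in the 6 files of single samples were identical to these.

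Counts were tested with edgeR 4.0.16 under R 4.3.3, by its quasi-likelihood test: TMM scaling, the default filter (minimum count 10), genotype as the single term and Benjamini-Hochberg adjustment over all 15267 tested genes at 0.05. CPM is on the TMM scale, and each log2 fold change sets Ash1l het over WT, beside the fit's standard error. Single values were also compared with exact permutation tests. Alternatives were DESeq2 1.42.0, limma 3.58.1 (voom and log2 FPKM), other scalings and filters, a replicate block and left-out libraries. The fit was tested on simulated data. Itgam had 2 table rows, and the one with more counts was used.

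The members, the gene lists and the rule for named genes were chosen with earlier results of these data known. The rule gave values per library for the 6 most abundant homeostatic members, Trem2, Tyrobp, Sall1, members with an unadjusted p under 0.05 or called by DESeq2, and members whose groups do not overlap; of each other list at most 4 genes by smallest p were named, and Olfml3, P2ry13, Cx3cl1, Lilrb4a, the other members given by library and single markers were named after their values were seen. The floors for counts of 0 cover counting error only, while the standard errors and SDs include the spread between libraries.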

Additional observations from a re-analysis of the deposited data

How the results depend on the processing

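Precision is limited by 3 libraries a genotype and, for Cst7, Itgax, Lgals3, Ccl3 and Ccl4, by low counts. Of all genes, 35 were called by DESeq2, 41 by the exact test of edgeR, 3 with the replicate block, 9, 7 and 13 without Ash1l het replicates 1, 2 and 3 in turn, and 7, 4 and 1 without WT replicates 1, 2 and 3 in turn. Spp1 was the 1 reactive gene called by DESeq2 (log2 fold change 1.84), by the exact test (1.85) and without Ash1l het replicate 3; left-out libraries gave 0 to 1 such calls. The reactive median log2 fold change was 1.44 by DESeq2 and 1.44 with no filter, where all 16 genes entered, 0.54 with the filter of 1 CPM in 3 libraries (13 genes), 0.48 on log2(FPKM + 1), and between 0.45, when Ash1l het replicate 2 was omitted, and 1.61, when replicate 3 was.

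With Ash1l het replicates 1 and 2 left out together, 50 genes were called, which rests on a lone Ash1l het library. Of the homeostatic genes 3 were then higher by sign (median -0.10), and of the reactive genes 7 (median 0.02). Signs turned there for Cx3cr1 (-0.02), Gpr34 (-0.20), Aif1 (-0.64), Fcrls (-0.10), Trem2 (-0.20), Tyrobp (-0.00), Cst7 (-1.55), Itgax (-0.46), Clec7a (-0.17), Cd68 (-0.07), Cd9 (-0.34) and Ctsd (-0.15). On log2(FPKM + 0.1) and log2(FPKM + 1) signs turned for P2ry13 (0.02 and 0.02), Csf1r (0.00 and 0.00), Laptm5 (0.04 and 0.03) and Axl (0.01 and 0.01), and for Laptm5 also with upper-quartile scaling (0.01) and the filter of 1 CPM in 3 libraries (0.00). With single libraries left out the log2 fold change crossed 0 for P2ry13 (-0.16 to 0.07), Tmem119 (-0.29 to 0.09), Csf1r (-0.08 to 0.00), Sall1 (-0.15 to 0.03), Aif1 (-0.17 to 0.58), Laptm5 (-0.16 to 0.12), Inpp5d (-0.02 to 0.10), Trem2 (-0.05 to 0.46), Tyrobp (-0.16 to 1.04) and Axl (-0.13 to 0.04). The cause of these changes was not tested beyond the library left out.

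Same-numbered libraries of the 2 genotypes had correlations of 0.056, -0.075 and 0.011 between their deviations from the group means over 15267 genes. Libraries of different number had correlations between -0.13 and 0.126. With 3 libraries a genotype these values cannot decide whether the numbers pair the libraries. With the replicate block the reactive median was 0.87, and 0 members were called.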
